A study of Mus musculus with 4 samples.

Results

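Astrocytes are the star-shaped glia that surround synapses and blood vessels throughout the brain. They clear glutamate from the synaptic cleft and return it to neurons as glutamine, take up potassium and GABA, line vessels with endfeet rich in water channels, pass ions and metabolites to each other through gap junctions, and secrete the lipid carriers of the brain. The 33 genes described here are widely used to mark these cells and cover each of those tasks. They were taken by symbol from a table of 33793 transcript clusters, a cluster being the set of probes that the array uses for 1 transcribed locus. All 33 symbols were found, on 37 clusters spread over 16 chromosomes.

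ADAR2, encoded by Adarb1, is an enzyme that edits double-stranded RNA by turning adenosine into inosine. Whole brains were dissected from adult females of the mouse strain 129SV, and their total RNA was hybridised to 4 Affymetrix whole-transcript gene arrays, 2 for wild type and 2 for Adar2 knockout. Per the study's methods the animals were siblings from heterozygous crosses, and its Adar2 -/- strain carries the Gria2R/R allele, whose transcript is already in the edited form and which rescues the early death of the knockout. The methods describe this allele in both genotypes, although their array paragraph says only wild type. The knockout was not limited to a cell type, so the design holds no deletion in astrocytes alone. Values are normalized log2 signals as deposited, on which a difference of 1 is a 2-fold change. Differences are given as Adar2 knockout minus wild type, and p is from limma, a linear model that shares the estimate of spread over all clusters, and is unadjusted unless called adjusted, which means over all 33793 clusters.

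The targeted gene Adarb1 read 10.50 and 10.45 on the wild type arrays and 9.16 and 8.96 on the knockout arrays, a difference of -1.415 (95% interval -1.71 to -1.12). Its limma p was 2.57e-05, the smallest of all clusters, and its adjusted p was 0.409. Which of its probes lie in the deleted part of the gene is not given in the sources used here. Gria2 differed by -0.025 (adjusted p = 0.986). The array medians lay between 6.03 and 6.09. No cluster of 33793 (0%) passed an adjusted p below 0.05, and 2009 (5.95%) had an unadjusted p below 0.05. For 2 against 2 arrays the smallest two-sided p of an exact permutation test is 0.333.

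The astrocyte genes were measured well above the low end of the array. The low end was taken from 4 Y-linked genes chosen for it, Ddx3y, Eif2s3y, Kdm5d and Uty, in these female brains. Their clusters read between 3.49 and 4.40, and all 37 astrocyte clusters were above 4.40 on every array. On the gene's own strand the lowest astrocyte signal was 6.74 and the highest 12.94, and 36 of the 37 clusters were above the median signal of the table. Each cluster rested on 13 to 38 probes, and 1 of the 37 was marked in the file as able to cross-hybridize. The file names no genome build, but all 37 clusters overlapped the RefSeq gene of that symbol in GRCm38.p6. In whole-brain RNA, fewer astrocytes and less of a transcript per astrocyte cannot be told apart. Several of the genes are also known in other brain cells, such as Apoe and Cst3 in microglia, Clu in neurons and Glul and S100b in oligodendrocytes.

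For 4 genes, Hes5, Dio2, Glul and Cst3, the table held a second cluster under the same symbol on the opposite DNA strand. By the strand in the file these clusters probe RNA antisense to the gene, and they are described apart from the clusters on the gene's own strand. For 5 genes the strand was not in the reference table, and their only cluster was counted with the gene-strand clusters, which makes 33.

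Across these 33 gene-strand clusters the genotypes differed little. In the knockout 19 were lower, 13 were higher and 1 was equal, with a median difference of -0.025, against 0.005 over all clusters and -0.025 over the clusters above the median signal. The direction of that count depended on scaling, since 28 of 33 were lower after median centring, 17 after quantile normalization and 14 after cyclic loess. Of the 33 clusters, 13 turned sign under at least 1 of these 3 scalings, and none of those 13 differed by more than 0.05. The differences ran from -0.33 for Hes5 to 0.105 for Cldn10 and Sparcl1. The 95% interval of each difference reached 0.251 to 0.433 to either side, so a 2-fold change lay outside the interval of all 33 genes. For 28 of them the interval lay within 0.5 of 0 on the log2 scale.

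**Figure D1:**
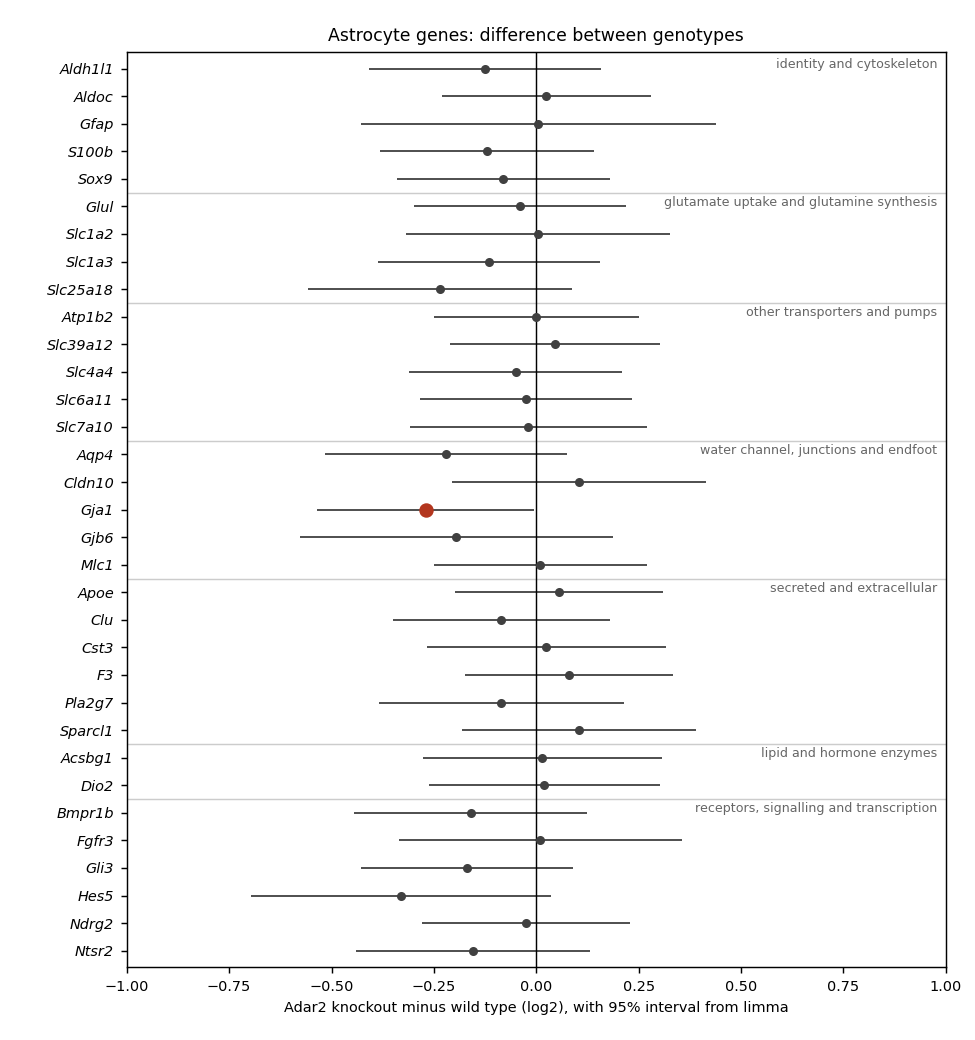
Difference between Adar2 knockout and wild type (x axis, log2) for the gene-strand cluster of each of the 33 astrocyte genes, grouped by role, with its 95% interval from limma over 4 arrays. The interval of Gja1 alone (red, unadjusted p below 0.05) lies to one side of 0, ending at -0.004.

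By the unadjusted p, 1 of the 37 clusters (2.70%) fell below 0.05, against 5.95% of all clusters. That cluster was Gja1, and its adjusted p was 0.834, the lowest among the astrocyte genes. Groups that did not overlap, with both knockout arrays below both wild type arrays, occurred in 11 of 37 clusters (29.7%), against 16.5% of all clusters and 21.9% of the clusters above the median signal. Both knockout arrays were above both wild type arrays in 4 of 37 (10.8%), against 17.7% of all clusters and 12.4% of the clusters above the median signal. Of the 33 gene-strand clusters alone, 11 (33.3%) were lower and 2 (6.06%) higher without overlap. These counts also moved with scaling. After median centring 15 of the 37 were lower and 3 higher without overlap, against 23.4% and 12.5% of all clusters and 31.3% and 7.98% of those above the median signal. After quantile normalization 7 were lower and 6 higher, against 17.2% and 16.2% of all clusters. After cyclic loess 5 were lower and 7 higher, against 17.1% and 17.2% of all clusters. On the gene strand 15 were lower and 1 higher after median centring, 7 and 4 after quantile normalization, and 5 and 5 after cyclic loess.

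The identity genes came first. GFAP is the intermediate filament protein of astrocytes and the classical marker of their reactive state. Gfap signal was 9.33 and 9.42 in wild type and 9.62 and 9.14 in the knockout, so the knockout arrays held both the highest and the lowest value. The genotype means differed by 0.005 (95% interval -0.43 to 0.44, adjusted p = 0.995), while the knockout arrays differed from each other by 0.48. This was the widest gap between replicates among the gene-strand clusters. Without Adar2 knockout replicate 1 the Gfap difference was -0.235, and without replicate 2 it was 0.245.

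The other identity genes showed narrower spreads. Aldh1l1, a folate enzyme used to label astrocytes in most regions, read 8.64 and 8.72 in wild type and 8.64 and 8.47 in the knockout (-0.125, and -0.04 without Adar2 knockout replicate 2). S100b, a calcium-binding protein, read 9.82 and 9.79 against 9.63 and 9.74 (difference -0.12, -0.175 to -0.065 when 1 array was left out, adjusted p = 0.9). S100b lies 1.03 Mb from Adarb1 on chromosome 10, nearer than any other astrocyte gene. Sox9, a transcription factor of the astrocyte lineage, differed by -0.08 (-0.12 to -0.04 when 1 array was left out), and Aldoc, the brain form of the glycolytic enzyme aldolase, by 0.025. In S100b and Sox9 both knockout arrays were below both wild type arrays, and neither passed the test.

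**Figure D2:**
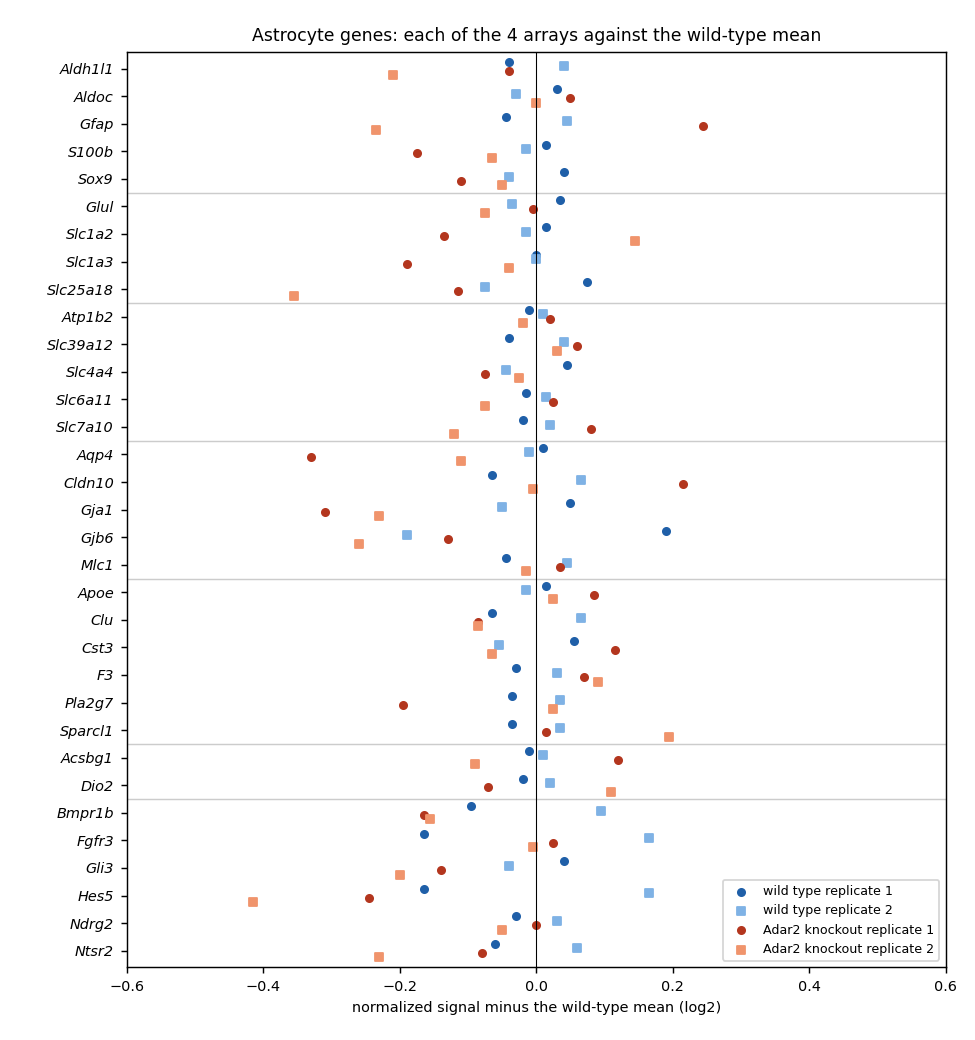
Signal of each gene-strand cluster on each of the 4 arrays, as the log2 distance from the mean of the wild type arrays (x axis), for the 33 astrocyte genes in the order of the plot of intervals. The knockout arrays of Gfap lie on either side of 0, at 9.62 and 9.14 before the wild-type mean is taken off, while both knockout arrays of Gja1, Aqp4, Hes5 and Slc25a18 lie left of both wild type arrays.

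Glutamate handling is the task for which astrocytes are best known at the synapse. Slc1a2 encodes GLT-1, the main glutamate transporter of the forebrain, and read 10.63 and 10.60 in wild type and 10.48 and 10.76 in the knockout. The knockout values lay on either side of the wild type values, with a difference of 0.005 (95% interval -0.32 to 0.33). Slc1a3 encodes GLAST, the transporter that is prominent in Bergmann glia of the cerebellum. It read 11.09 on both wild type arrays and 10.90 and 11.05 in the knockout, lower on both knockout arrays, with a difference of -0.115 (-0.19 to -0.04 when 1 array was left out, adjusted p = 0.907).

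Glul encodes glutamine synthetase, which turns the captured glutamate into glutamine. Its gene-strand cluster (chromosome 1, 153899944 to 153909723, plus strand) read 12.08 and 12.01 in wild type and 12.04 and 11.97 in the knockout, and the groups overlapped (difference -0.04, -0.075 to -0.005 when 1 array was left out, adjusted p = 0.976). Slc25a18, a mitochondrial glutamate carrier, read 10.72 and 10.57 against 10.53 and 10.29. Both knockout arrays were below both wild type arrays, by -0.235 on average (95% interval -0.56 to 0.09, adjusted p = 0.848). Leaving out 1 array gave -0.355 (without Adar2 knockout replicate 1) to -0.115 (without replicate 2). Over these 4 genes 3 were lower and 1 was higher, and none passed the test. The 21 other genes of the glutamate-glutamine cycle on a list made for comparison, which holds glutamate and glutamine transporters of other cells and the enzymes between them, gave 24 clusters, 13 lower and 11 higher, with a median of -0.0125, which was -0.0525 after median centring, 0.015 after quantile normalization, 0.024 after cyclic loess and -0.035 without wild type replicate 1. None of these had a p below 0.05, and the largest difference was that of the transaminase Got1 at -0.21 (adjusted p = 0.843).

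The remaining transporters and pumps differed by 0.05 or less. They were Slc6a11, the GABA transporter GAT-3, Slc7a10, an exchanger of small neutral amino acids, Slc39a12, a zinc importer, Slc4a4, a sodium bicarbonate cotransporter, and Atp1b2, the beta subunit of the sodium pump found in glia. Their differences ran from -0.05 for Slc4a4 to 0.045 for Slc39a12, and Atp1b2 differed by 0. When 1 array was left out Slc4a4 ran from -0.095 to -0.005 and Slc39a12 from 0.005 to 0.085. In none of the 5 genes did the groups stay apart, and the widest gap between replicates was 0.2, between the knockout arrays of Slc7a10.

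The genes of the endfoot and of the junctions between astrocytes held the one gene with an unadjusted p below 0.05. Gja1 encodes Cx43, the main gap junction protein of astrocytes. Its cluster (chromosome 10, 56377300 to 56390622, plus strand) read 10.66 and 10.56 in wild type and 10.30 and 10.38 in the knockout. Both knockout arrays were below both wild type arrays, and the gaps between replicates were smaller than the difference between genotypes. The wild type mean was 10.61 ± 0.071 and the knockout mean 10.34 ± 0.057 (SD, n = 2 each). The difference was -0.27 (SE 0.108, 95% interval -0.54 to -0.004), which is 1.21-fold, with an unadjusted p of 0.0473 and an adjusted p of 0.834. The unadjusted p was no longer below 0.05 after quantile normalization (-0.235) or cyclic loess (-0.22), without shrinkage of the spread, with a replicate block, or without any single array, where the difference ran from -0.32 to -0.22. Gja1 lies on the chromosome of Adarb1, 20.9 Mb away.

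The promoter of Gja1 is shown because Gja1 had the lowest p among the astrocyte genes. It covers chr10:56377050-56377349 on the plus strand of GRCm38.p6, from 250 bases before the RefSeq start to 50 bases after it, 5′ to 3′, and capitals mark the AP-1 motif TGAGTCA, whose first base is at position -19 from the start.
Gja1: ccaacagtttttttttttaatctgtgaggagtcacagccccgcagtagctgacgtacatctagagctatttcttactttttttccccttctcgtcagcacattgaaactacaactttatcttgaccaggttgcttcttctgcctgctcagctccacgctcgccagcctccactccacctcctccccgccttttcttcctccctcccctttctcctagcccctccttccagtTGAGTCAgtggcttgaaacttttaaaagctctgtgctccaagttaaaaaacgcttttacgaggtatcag
AP-1 is a dimer of the Fos and Jun families. The motif, searched as TGAGTCA or TGACTCA, stood in the promoters of 2 of the 28 astrocyte genes with a promoter in the table (7.14%), Gja1 and F3, and in those of 5.95% of all 27025 genes. A match of letters is a description of the sequence and not evidence of binding.

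The other junction gene, Gjb6, encodes Cx30. It read 7.51 and 7.13 in wild type and 7.19 and 7.06 in the knockout, so the groups overlapped, and wild type replicate 1 was the highest of the 4 arrays. The difference was -0.195, and -0.005 without wild type replicate 1. Aqp4 encodes aquaporin 4, the water channel that is concentrated in the endfoot membrane facing the vessel. Aqp4 read 9.76 and 9.74 in wild type and 9.42 and 9.64 in the knockout, lower on both knockout arrays. The difference was -0.22 (95% interval -0.52 to 0.08, adjusted p = 0.846), and it passed an unadjusted p below 0.05 only without Adar2 knockout replicate 2, at -0.33, and was -0.11 without Adar2 knockout replicate 1. Mlc1, a membrane protein of the endfoot, differed by 0.01, and Cldn10, a claudin, by 0.105. Over these 5 genes 3 were lower and 2 higher, with a median of -0.195. That median ran from -0.235 to -0.172 under the 3 scalings, but it was -0.035 when wild type replicate 1 was left out, -0.11 when replicate 1 of the knockout was, and -0.13 when replicate 2 of the knockout was.

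Genes that work beside these at the endfoot and in potassium buffering were split between both directions. The 15 genes of that list, among them dystroglycan complex members, laminins and potassium channels, gave 15 clusters, 7 lower and 8 higher, with a median of 0.02 (-0.03 to 0.03 when 1 array was left out) and no p below 0.05. Kcnj10, the Kir4.1 potassium channel, read 11.10 and 11.06 in wild type and 10.99 and 11.07 in the knockout. The largest difference was that of Lama2, a laminin chain of the vascular basement membrane, at 0.22 (adjusted p = 0.835).

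**Figure D3:**
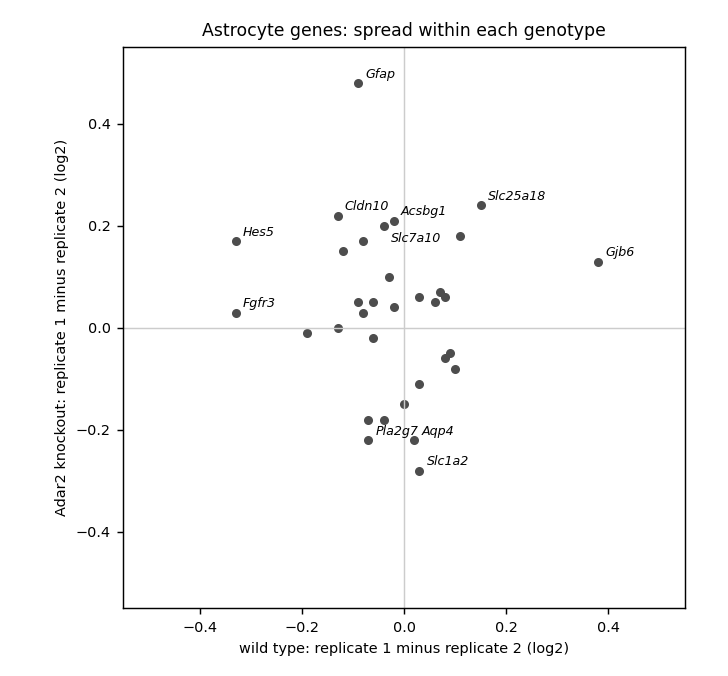
Difference between the replicates of each genotype for the 33 gene-strand clusters, wild type on the x axis and Adar2 knockout on the y axis, both replicate 1 minus replicate 2 in log2. Genes with a gap of at least 0.2 in either genotype are named, Gfap has the widest gap between knockout arrays (0.48) and Gjb6 the widest between wild type arrays (0.38).

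Secreted and extracellular products differed by 0.105 or less on the gene strand. Apoe, the main lipid carrier of the brain, read 8.0 and 7.97 in wild type and 8.07 and 8.01 in the knockout, above wild type on both arrays by 0.055 on average (0.025 to 0.085 when 1 array was left out). F3, tissue factor, was also higher on both knockout arrays, by 0.08 (0.05 to 0.11). Clu, the chaperone clusterin, was lower on both, by -0.085, with 9.98 on each knockout array, and by -0.02 without wild type replicate 2. Sparcl1, the matrix protein hevin that promotes synapses, differed by 0.105 (0.015 to 0.195 when 1 array was left out), Pla2g7, a secreted phospholipase, by -0.085, and the cysteine protease inhibitor Cst3 by 0.025 on its gene strand. None of the 6 passed the test. The list of cholesterol synthesis and lipoprotein genes gave 22 clusters, 12 lower and 10 higher, with a median of -0.0125, no p below 0.05 and its largest difference in Fdft1, squalene synthase, at -0.265 (adjusted p = 0.843, -0.40 to -0.13 when 1 array was left out). The median of this list ran from -0.055 to 0.0325 when 1 array was left out and was 0.024 after cyclic loess. The lipid and hormone enzymes Acsbg1, an acyl-CoA synthetase, and Dio2, the deiodinase that makes active thyroid hormone in the brain, differed by 0.015 and 0.02.

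Among receptors, signalling genes and transcription factors 5 of 6 were lower, with a median of -0.1575, which ran from -0.198 to -0.129 under the 3 scalings. Without wild type replicate 2 the median was -0.08 and 4 of 6 were lower. Hes5 is a transcription factor that Notch signalling switches on in progenitors and glia. Its gene-strand cluster (chromosome 4, 154960923 to 154962371, plus strand) read 8.36 and 8.69 in wild type and 8.28 and 8.11 in the knockout. Both knockout arrays were below both wild type arrays, and the wild type arrays differed by 0.33, as much as the genotype means. The difference of -0.33 had a 95% interval of -0.70 to 0.04 and an unadjusted p of 0.0696. Its p was below 0.05 after median centring (-0.37), with an intensity trend and without wild type replicate 1 (-0.495), while the difference was -0.165 without wild type replicate 2.

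Gli3, a transcription factor of Hedgehog signalling, read 7.46 and 7.38 in wild type and 7.28 and 7.22 in the knockout (difference -0.17, adjusted p = 0.856). The BMP receptor Bmpr1b differed by -0.16 and the neurotensin receptor Ntsr2 by -0.155, each with both knockout arrays below both wild type arrays. Leaving out 1 array gave -0.255 to -0.065 for Bmpr1b and -0.23 to -0.08 for Ntsr2. The growth factor receptor Fgfr3 differed by 0.01, with 9.30 and 9.63 in wild type on either side of 9.49 and 9.46 in the knockout. Ndrg2, a cytoplasmic protein abundant in astrocytes, differed by -0.025. Of the 6 genes none passed the test.

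Progenitor genes, with which Hes5 and Gli3 overlap in development, were examined as a list of their own. The 12 genes of radial glia and neural stem cells gave 13 clusters, 8 lower and 5 higher, with a median of -0.145, which was -0.04 without wild type replicate 1 and -0.05 without Adar2 knockout replicate 2. Nr2e1, the stem cell factor Tlx, was the gene of this list with a p below 0.05, and read 7.74 and 7.56 in wild type and 7.36 and 7.34 in the knockout (-0.30). Vim, the filament vimentin, was higher on both knockout arrays, 10.37 and 10.39 against 10.30 and 10.32 (0.07, adjusted p = 0.945), and its second cluster, on the opposite strand, differed by 0.255, and by 0.09 without wild type replicate 1.

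The opposite-strand clusters were higher in the knockout in all 4 genes, with a median difference of 0.2825, which ran from 0.215 to 0.40 when 1 array was left out. At Glul the cluster lies at the 3′ end of the gene (chromosome 1, 153909189 to 153909668, minus strand) and read 6.97 and 7.28 in wild type and 7.37 and 7.66 in the knockout. Both knockout arrays were above both wild type arrays, by 0.39 on average (95% interval -0.006 to 0.79), with an unadjusted p of 0.0525 and an adjusted p of 0.834. This is the widest difference of the 37 clusters. It is also the one astrocyte cluster marked as able to cross-hybridize. Its p was below 0.05 after quantile normalization, after cyclic loess, among clusters above the median signal, with a replicate block and with an intensity trend, at differences of 0.39 to 0.41. Leaving out 1 array gave 0.235 (without wild type replicate 1) to 0.545, with no p below 0.05. The Glul gene-strand cluster, by contrast, differed by -0.04.

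At Cst3 the opposite-strand cluster (chromosome 2, 148871729 to 148872838, plus strand) also lies at the 3′ end. It read 9.01 and 9.48 in wild type and 9.69 and 9.43 in the knockout, so the groups overlapped (0.315, adjusted p = 0.854), and the difference was 0.08 without wild type replicate 1. At Dio2 the cluster spans the 5′ end (chromosome 12, 90738201 to 90750693, plus strand) and read 5.38 and 5.19 against 5.16 and 5.67 (0.13, adjusted p = 0.946). Its difference was -0.125 without Adar2 knockout replicate 2, so its direction rested on that array.

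At Hes5 the opposite-strand cluster (chromosome 4, 154960770 to 154961678, minus strand) covers the 5′ end and the start of the gene. It read 6.54 and 6.55 in wild type and 6.73 and 6.86 in the knockout, above wild type on both arrays, by 0.25 (95% interval -0.016 to 0.516), with an unadjusted p of 0.0611 and an adjusted p of 0.835. The clusters of the opposite strands of Hes5 therefore differed in opposite directions, the gene strand lower on both knockout arrays and its partner higher on both. Neither passed p below 0.05 as deposited. The opposite-strand cluster did so among clusters above the median signal.

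**Figure D4:**
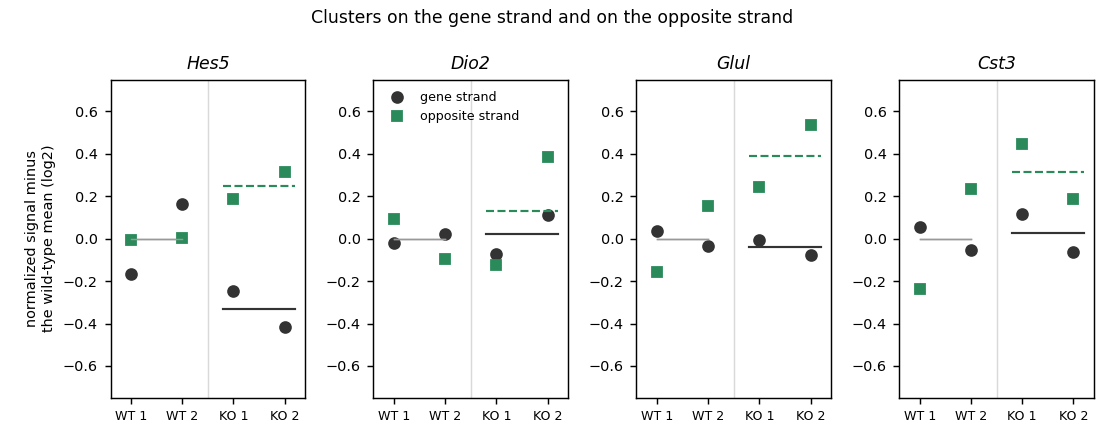
Signal on each array as the log2 distance from the wild-type mean (y axis) for the gene-strand cluster (black circles, solid line at the knockout mean) and the opposite-strand cluster (green squares, dashed line at the knockout mean) of 4 astrocyte genes, with WT for wild type, KO for Adar2 knockout and the replicate number. The knockout means of the opposite strand are 0.25 for Hes5, 0.13 for Dio2, 0.39 for Glul and 0.315 for Cst3, and those of the gene strand are -0.33, 0.02, -0.04 and 0.025.

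Clusters of the opposite strand were more often higher than lower in the whole table too. Of all clusters 727 under 697 gene symbols lay on the strand opposite to their gene. Of these 62.0% were higher in the knockout, with a median of 0.045, and their array medians were 5.68 and 5.77 in wild type and 5.83 and 5.82 in the knockout. Of their 709 gene-strand partners 38.6% were higher, with a median of -0.035. These shares are for the values as deposited and were not computed under the other scalings. Median centring moves every difference by -0.04. The part that a difference between arrays in antisense signal has in the values of Glul, Cst3, Hes5 and Dio2 was not tested.

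The promoters of Hes5 and Dio2 are shown because the opposite-strand clusters of these genes reach across their start. Both are from RefSeq on GRCm38.p6, 250 bases before to 50 after the start, 5′ to 3′ on the strand of the gene. Hes5 covers chr4:154960673-154960972 on the plus strand and Dio2 covers chr12:90738989-90739288 on the minus strand. Capitals mark the core motif of RBPJ, the DNA-binding partner of Notch, in Hes5 (TTCCCAC and GTGGGAA, first bases at -226 and -83), and the cAMP response element TGACGTCA in Dio2 (first base at -95).
Hes5: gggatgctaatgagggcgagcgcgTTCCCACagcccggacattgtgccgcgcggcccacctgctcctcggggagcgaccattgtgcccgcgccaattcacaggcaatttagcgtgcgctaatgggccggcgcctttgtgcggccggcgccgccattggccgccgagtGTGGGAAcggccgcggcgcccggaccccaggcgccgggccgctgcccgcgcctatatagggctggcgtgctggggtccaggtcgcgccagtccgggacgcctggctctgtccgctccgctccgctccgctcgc
Dio2: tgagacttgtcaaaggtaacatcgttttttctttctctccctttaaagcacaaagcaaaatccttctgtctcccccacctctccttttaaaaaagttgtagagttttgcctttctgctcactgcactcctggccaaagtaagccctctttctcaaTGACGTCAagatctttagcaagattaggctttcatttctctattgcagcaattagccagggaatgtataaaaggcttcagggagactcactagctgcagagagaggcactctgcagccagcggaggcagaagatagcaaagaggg
The Hes5 window is 72.7% G and C and the Dio2 window 44.7%. Of the RBPJ cores in Hes5, the one nearer the start lies within the span of the opposite-strand cluster and the farther one lies outside it. The whole Dio2 window lies within its opposite-strand cluster, while the gene-strand cluster of Dio2 (chromosome 12, 90724552 to 90738438, minus strand) ends short of this start.

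Each motif of known regulators that was searched stood in few of the promoters. Of the 33 genes 28 had a promoter in the table, in 38 windows with a median G and C content of 56%, against 52.7% over all windows. Searched on both strands, the RBPJ core stood in 2 of the 28 genes (7.14%), Hes5 and Aldoc, and in 7.25% of all genes. The cAMP response element stood in Dio2 alone (3.57%), against 2.03% of all genes. A STAT motif TTCCNNGAA, with N for any base, stood in 5 of the 28 (17.9%), Aldoc, Gfap, Ntsr2, Pla2g7 and Slc1a3, against 5.6% of all genes. The SOX core AACAAT stood in Bmpr1b alone (3.57%), against 12.2% of all genes, and the full NFI site, TTGGC and GCCAA with 5 bases of any kind between them, in none, against 0.0444%.

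The remaining astrocyte and glial lists served to place the 33 genes. A list of 60 further astrocyte genes, of which 58 were found, gave 60 clusters with 40 lower and 19 higher. Over all clusters 47.7% were lower. The median was -0.0375, against -0.025 over the clusters above the median signal. In this list 3 clusters (5%) had a p below 0.05, against 5.95% of all clusters. Agxt2l1, a phospholyase, was higher on both knockout arrays, at 7.46 and 7.40 against 6.94 and 7.12 (0.40). Cyp4f15, a fatty acid hydroxylase, read 7.47 and 7.64 in wild type and 7.27 and 6.56 in the knockout (-0.64), and its knockout arrays differed by 0.71. Phkg1, a subunit of phosphorylase kinase in glycogen breakdown, read 7.72 and 7.76 against 7.53 and 7.26 (-0.345). The differences ran from -0.995 to -0.285 for Cyp4f15 and from -0.48 to -0.21 for Phkg1 when 1 array was left out. The median of this list was 0.005 after cyclic loess, -0.0775 after median centring, which lowers every difference by 0.04, and ran from -0.0475 to -0.0025 when 1 array was left out.

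Genes of reactive astrocytes were split between both directions. Of 40 such genes 39 were found, on 42 clusters with 18 lower and 22 higher, a median of 0.015 (-0.015 to 0.04 when 1 array was left out) and 2 clusters (4.76%) with a p below 0.05. Serpina3n, a secreted protease inhibitor, read 10.10 and 10.14 in wild type and 9.54 and 9.66 in the knockout, lower on both arrays by -0.52 (95% interval -0.79 to -0.25). Its unadjusted p was 0.00317, below 0.05 also without any single array, and its adjusted p was 0.834. The complement component C3 read 7.10 and 7.75 against 6.88 and 6.35 (-0.81, and -1.135 to -0.485 when 1 array was left out), a gene that microglia also express. Lcn2, lipocalin 2, read 6.04 and 5.63 in wild type and 6.38 and 5.97 in the knockout, with overlapping groups (0.34, and 0.135 to 0.545 when 1 array was left out). For Bergmann glia, the astrocytes of the cerebellar cortex, 10 of 12 genes were found on 11 clusters, 6 lower and 5 higher, with a median of -0.025 (-0.095 to -0.01 when 1 array was left out) and no p below 0.05. Slc6a11 is on that list too, and the largest difference in the list was that of Etv4 at -0.27 (adjusted p = 0.843, -0.405 to -0.135 when 1 array was left out).

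**Figure D5:**
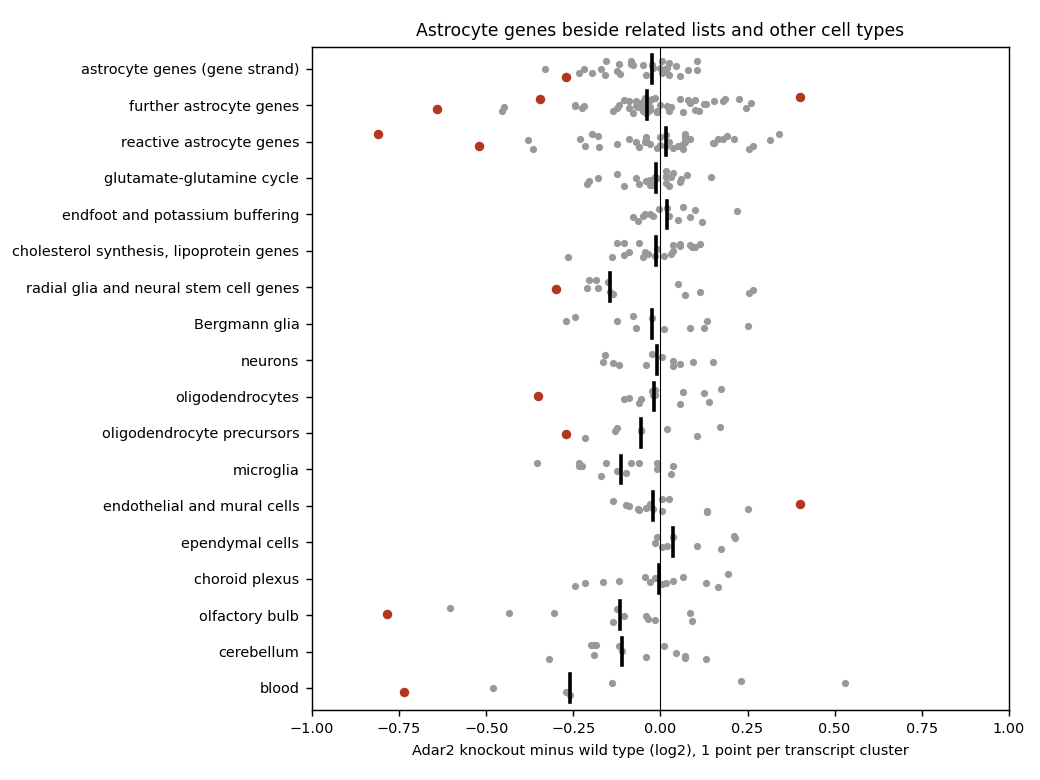
Difference between Adar2 knockout and wild type (x axis, log2) for each cluster of the 33 astrocyte genes on the gene strand and of 17 related, cell type and region lists, 1 point per cluster, red where the unadjusted limma p is below 0.05, with a black bar at the median of each list. The medians of the lists lie between -0.26 (blood) and 0.035 (ependymal cells), and that of the astrocyte genes is -0.025.

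The median differences of markers of other brain cells moved with single arrays. Neuron markers had 6 clusters lower and 6 higher with a median of -0.01 (-0.045 to -0.01 when 1 array was left out). That median was -0.05 after median centring, 0.022 after quantile normalization and 0.040 after cyclic loess. The mean signal of the neuron markers per array lay between 11.01 and 11.02 in wild type and between 10.98 and 11.01 in the knockout. None had a p below 0.05, and the largest difference was Stmn2 at -0.165 (-0.235 to -0.095). Oligodendrocyte markers had a median of -0.0175 (-0.0775 to 0.0725), with Mog at 10.11 and 10.21 in wild type and 9.90 and 9.72 in the knockout (-0.35). Precursors of oligodendrocytes had a median of -0.055 (-0.14 to 0.015), with Olig2 at 8.73 and 8.74 against 8.40 and 8.53 (-0.27). The limma p of Olig2 was 0.0477 as deposited, 0.0831 after quantile normalization and 0.084 after cyclic loess. Markers of endothelial and mural cells had a median of -0.02 (-0.085 to 0.06), with the transporter Slco1a4 at 7.20 and 6.99 against 7.55 and 7.44 (0.40). Ependymal markers had a median of 0.035, which was 0.215 without wild type replicate 2. Choroid plexus markers had a median of -0.005, which was -0.1825 without wild type replicate 1 and 0.1225 without wild type replicate 2. Neither list had a p below 0.05, with their largest differences in Ccdc153 (0.215, and -0.075 without Adar2 knockout replicate 2) and F5 (-0.245, and 0 without wild type replicate 2).

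Some lists were more often lower in the knockout, against 47.7% lower over all clusters, and their medians moved with single arrays. Microglia markers were lower in 12 of 14, at a median of -0.1125, which ran from -0.19 to -0.0475 when 1 array was left out. Their mean signal per array was 7.83 and 7.85 in wild type and 7.67 and 7.77 in the knockout, no p was below 0.05, and the largest difference was P2ry13 at -0.355 (adjusted p = 0.854), and at -0.095 without Adar2 knockout replicate 1. Olfactory bulb markers were lower in 10 of 12, and their mean signal was 7.74 and 7.88 in wild type and 7.79 and 7.42 in the knockout. The lowest value was that of Adar2 knockout replicate 2, and without it the median of -0.115 was -0.0025. In this list Cdhr1 read 7.80 and 7.87 in wild type against 7.44 and 6.66 (-0.785, and -1.175 to -0.395 when 1 array was left out). Cerebellum markers had a median of -0.11 (-0.12 to -0.025 when 1 array was left out), with Neurod1 at -0.32 (adjusted p = 0.835), and at -0.145 without Adar2 knockout replicate 1. The blood list, 7 clusters with several for near-identical globin genes, was lower in 5 and had a median of -0.26, which was -0.485 without Adar2 knockout replicate 2 and -0.035 without replicate 1. In it Alas2, the heme enzyme of red cells, read 8.71 and 7.90 in wild type against 7.34 and 7.80 (-0.735, and -1.14 to -0.33 when 1 array was left out). The limma p of Alas2 was 0.0467 as deposited, 0.0539 after quantile normalization and 0.0541 after cyclic loess. Over all the lists 11 of 300 distinct clusters (3.67%) had an unadjusted p below 0.05, against 5.95% of all clusters, and each had an adjusted p of 0.834. Of these Serpina3n was the one below 0.05 without each array in turn, Cdhr1 was so in 2 of the 4 removals and the others in 1. The part that dissection, blood or microglia have in the values of the astrocyte genes was not tested.

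The spread between replicates set what could be seen. Among the 33 gene-strand clusters the replicates of wild type had a median gap of 0.08 and those of the knockout 0.11, and over all clusters it was 0.13 in each genotype. The gap within a genotype was wider than the difference between genotypes in 25 of the 33 and in 25582 of all 33793 clusters, a similar share. Adar2 knockout replicate 2 gave the lowest value of the 4 arrays in 14 of the 33 and Adar2 knockout replicate 1 in 11. Wild type replicate 1 did so in 6 and wild type replicate 2 in 2. Over all 33793 clusters the lowest value was on wild type replicates 1 and 2 in 9590 and 7934. It was on knockout replicates 1 and 2 in 7527 and 8742. Among the 33 the highest value was more evenly placed, with 10, 9, 10 and 4 clusters on wild type replicates 1 and 2 and knockout replicates 1 and 2. Over all clusters these counts were 8865, 7989, 8648 and 8291.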

How the data were processed

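The authors deposited a table of normalized log2 signals for 33793 transcript clusters on 4 arrays, to 2 decimals. The submitters' processing notes name RMA and Affymetrix Expression Console. Per the study's methods, total RNA was prepared with the Ambion WT Expression Kit at a core facility. The table also holds averages, log2 ratios, fold changes and p-values of the authors' comparisons, by genotype and by replicate number, none of which was used. No genome build is named.

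Genotype and replicate number came from the array labels. No filter and no further normalization was applied. The 2 genotypes were compared by lmFit and eBayes of limma 3.58.1 (R 4.3.3) with no other term and two-sided p-values, followed by Benjamini-Hochberg adjustment across every cluster. Intervals are 95% and use 5.79 degrees of freedom. The p-values rest on the spread between 2 arrays per genotype together with the spread shared over all clusters. The number of arrays limits the precision. The calculation was tested on simulated data.

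Clusters of a gene were kept apart, and gene strand and promoter sequences came from RefSeq tables of GRCm38.p6, in which 28 of the 33 genes were found. Values on every array are given for astrocyte clusters with an unadjusted p below 0.05, for the 5 widest differences, and for Gfap, Aqp4, Slc1a2, Slc1a3, Gja1 and Glul. From each other list the genes with a p below 0.05, or otherwise the one with the widest difference, are named. Further genes were named after their values were seen. The members and lists were chosen with earlier results of these data known, so no list was tested as a set. The 14 alternatives were 3 scalings (median centring, quantile, cyclic loess), clusters above the median signal only, a block for the replicate number, removal of each array, an intensity trend, robust fitting, no shrinkage, 1 value per gene, and removal of clusters that can cross-hybridize. Removal of opposite-strand clusters was added after the data were seen. Python 3.11.15, pandas 2.3.3 and matplotlib 3.10.9 were used.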

Additional observations from a re-analysis of the deposited data

How the results depend on the processing

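No cluster passed an adjusted p below 0.05 as deposited or under 13 of the 14 alternatives, while 15 of all clusters did without shrinkage. The number of astrocyte clusters with an unadjusted p below 0.05, 1 as deposited, was 2 after median centring, 3 among clusters above the median signal, 3 with an intensity trend and 0 without shrinkage, and ran from 0 to 1 when an array was left out. With a replicate block it was 1, Glul on the opposite strand in place of Gja1. Arrays with the same number were not treated as pairs in the main fit. Their deviations from the group means correlated at 0.0516. With 2 arrays per genotype this is a single value over all clusters, and it cannot decide whether such arrays are pairs. The median astrocyte difference, -0.02 over the 37 clusters, was -0.06 after median centring, 0.02 after quantile normalization, 0.0273 after cyclic loess, -0.025 with 1 value per gene and -0.025 without opposite-strand clusters, and ran from -0.05 to -0.005 when an array was left out.

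Small differences turned sign with scaling. After median centring Gfap was at -0.035, Aldoc at -0.015, Slc1a2 at -0.035, Mlc1 at -0.03, Cst3 on the gene strand at -0.015, Acsbg1 at -0.025, Dio2 on the gene strand at -0.02 and Fgfr3 at -0.03. After quantile normalization Slc6a11 was at 0.014 and Slc7a10 at 0.02. After cyclic loess Glul on the gene strand was at 0.0095, Slc6a11 at 0.025, Slc7a10 at 0.027, Slc4a4 at 0.00032 and Ndrg2 at 0.024. Leaving out 1 array gave ranges across 0 for Gfap (-0.235 to 0.245), Mlc1 (-0.035 to 0.055), Fgfr3 (-0.155 to 0.175), Aldoc (-0.005 to 0.055), Slc1a2 (-0.135 to 0.145), Cst3 on the gene strand (-0.065 to 0.115), Ndrg2 (-0.055 to 0.005), Cldn10 (-0.005 to 0.215), Pla2g7 (-0.195 to 0.025), Acsbg1 (-0.09 to 0.12), Slc6a11 (-0.075 to 0.025), Slc7a10 (-0.12 to 0.08), Dio2 on the opposite strand (-0.125 to 0.385), Dio2 on the gene strand (-0.07 to 0.11) and Atp1b2 (-0.02 to 0.02, at 0 with all arrays). The causes were not tested. Over all clusters the calls at p below 0.05 were 1230 higher and 779 lower as deposited, and 801 higher and 1229 lower after median centring.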
